A study of Mus musculus with 10 samples.

Results

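Neurexins, neuroligins and the adhesion proteins that work with them are described here by 9 genes: Nrxn2, Nrxn3, Nlgn1, Nlgn2, Nlgn3, Lrrtm1, Lrrtm2, Cntnap2 and Cntnap4. They were taken as a named list, matched by gene symbol, and make up 9 of the 47632 gene rows measured. All 9 reached a mean of at least 1 FPKM (fragments scaled by transcript length and by the mapped fragments of the library) over the libraries and were among the 15905 genes tested. RNA sequencing was done on striatum, the forebrain nucleus that is hit first in Huntington's disease. The 5 R6/2 libraries came from hemizygous carriers of the R6/2 transgene, a piece of the human huntingtin gene with a lengthened CAG repeat that is carried beside the mouse's own huntingtin genes. The 5 control libraries came from isogenic mice of the wild-type genotype, and every mouse was 11 weeks old at harvest. Neither sex nor the number of animals behind a library is stated in the labels, and p-values therefore reflect library-to-library spread, some of which may be technical.

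Neurexins sit in the membrane of the nerve terminal and reach across the synaptic cleft. Neuroligins and the leucine-rich repeat proteins LRRTM1 and LRRTM2 sit in the facing membrane of the receiving neuron, bind neurexins and hold receptors and scaffolds in place. CNTNAP2 and CNTNAP4 belong to the wider neurexin superfamily and act on axons and nerve terminals. In the striatum these proteins serve the inputs from cortex and thalamus onto spiny projection neurons and the inhibitory contacts among striatal neurons.

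The tissue label was checked against marker genes. All 12 spiny neuron markers were detected, and all 12 were lower in R6/2 libraries, where they summed to between 230.1 and 380.1 FPKM, against 1796 to 2287 FPKM in control libraries. Markers of cortical excitatory neurons were detected too, and 7 of the 8 were tested, with 2 called higher and 0 lower. They summed to between 68.7 and 125 FPKM in R6/2 libraries, highest in R6/2 3, and to between 37.2 and 64.8 FPKM in control libraries, lowest in controls 1 and 3. None of the cortical markers was listed at 0 in every library. Of the tested markers of other cells, limma called 4 of 8 lower for astrocytes, 5 of 8 for myelin, 5 of 7 for interneurons and 1 of 6 for microglia. Oligodendrocyte precursor markers summed to between 15.2 and 22.7 FPKM in R6/2 and to between 20.8 and 33.8 FPKM in control libraries. The part of these markers in the changes of the adhesion genes was not tested, except that the cortical marker signal was tried as a covariate in limma. Low FPKM values fell partly on steps, with 16.9 to 22.2% of low genes at the commonest ratio to control 1, and these steps put the relative depth of the libraries at 0.686 to 1.38 in R6/2 and 0.71 to 1.02 in controls, with control 1 set to 1. No absolute read number follows from these steps.

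Of the 9 genes, 2 fell in R6/2 striatum, Lrrtm1 and Nrxn3, and 0 rose. Lrrtm1 averaged 7.22 ± 0.722 FPKM in R6/2 and 13.8 ± 1.93 FPKM in control libraries (SD, n = 5 each), which is 47.8% less. Nrxn3, by far the most abundant of the 9, averaged 119 ± 10.8 FPKM in R6/2 and 148 ± 6.93 FPKM in control libraries (SD, n = 5 each), which is 19.7% less. Over all genes tested with limma, 14.1% were called, 5.0% higher and 9.11% lower, so the 2 of 9 calls are read one gene at a time. At an unadjusted p under 0.05 limma picked 4 of the 9, all lower in R6/2, against 27.5% of all genes tested in either direction and 15.5% lower, and 0 of the 9 were called higher in any setting tried. The calls over all genes were 795 higher and 1449 lower, of which 64.6% were lower, against 53.5% after quantile normalization and 42.7% once the protein-coding total was set equal in every library. The median log2 change was -0.20 over the 9 genes and 0.00 over all genes tested, on the log2(FPKM + 1) scale used for all log2 changes here. In bulk tissue, fewer cells of a type and less RNA per cell cannot be told apart.

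**Figure D1:**
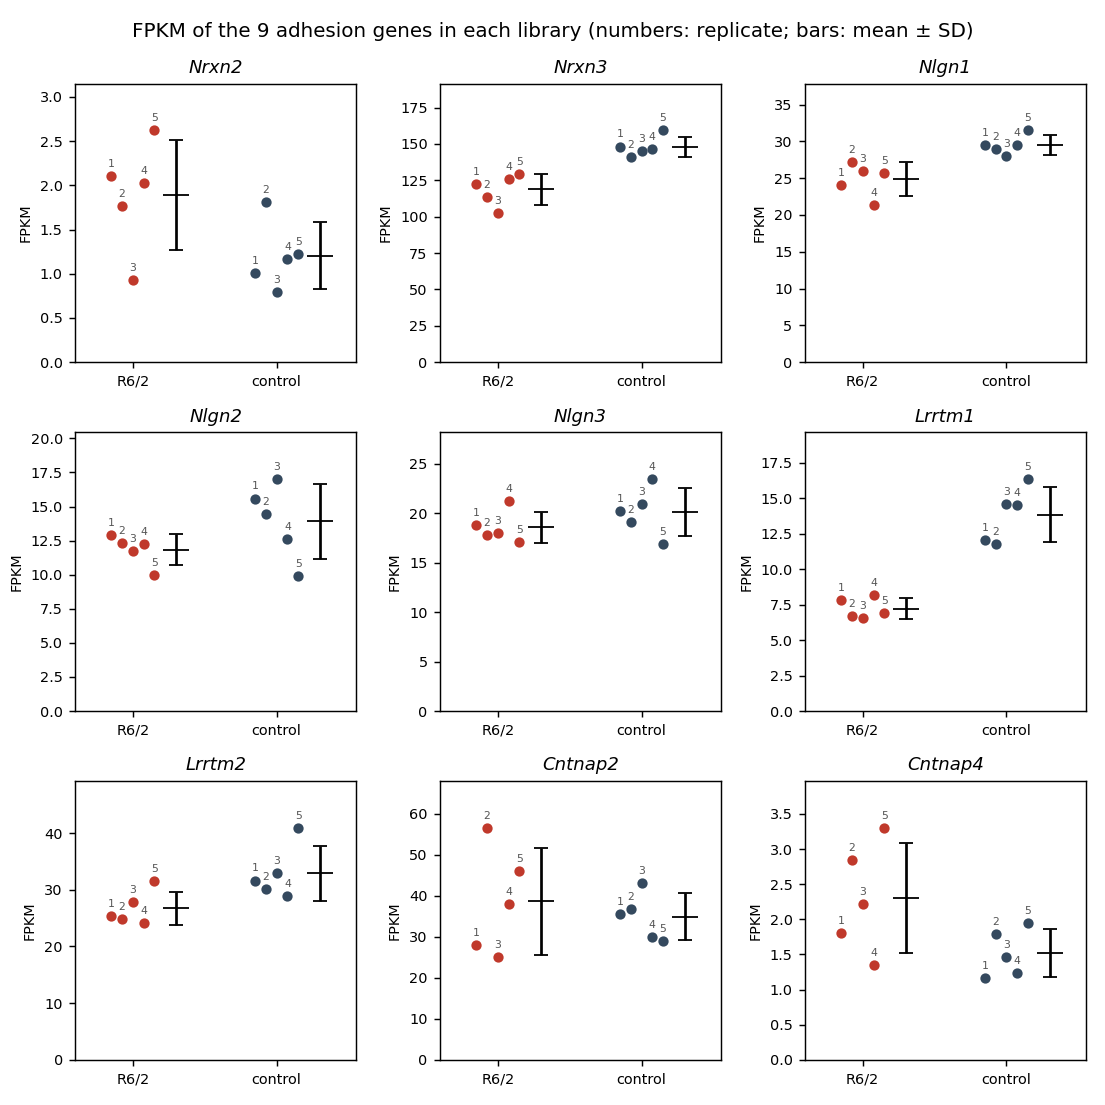
FPKM of each of the 9 adhesion genes in every library, R6/2 to the left of control, with points numbered by replicate and black bars for the mean ± SD of 5 libraries. The R6/2 points of Lrrtm1, Nrxn3 and Nlgn1 all lie below the control points, while the groups of the other 6 genes overlap.

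Lrrtm1 encodes a postsynaptic protein of excitatory synapses that binds neurexins. Its gene lies at GRCm38 chromosome 6, 77242689 to 77257791 on the plus strand, inside Ctnna2, an alpha-catenin gene on the other strand, with no exon in common. Lrrtm1 stood at 7.82, 6.68, 6.56, 8.17 and 6.91 FPKM in R6/2 libraries 1 to 5, against 12.02, 11.8, 14.6, 14.5 and 16.4 FPKM in control libraries 1 to 5. The highest R6/2 library lay below the lowest control library. The log2 change was -0.85 (SE 0.105, 95% interval -1.08 to -0.61, limma adjusted p = 0.000635), which put Lrrtm1 at rank 326 of the 15905 genes ordered by p. Lrrtm1 was called in all 20 settings tried, with log2 changes between -0.92 and -0.62 and adjusted p-values between 0.000426 and 0.0386. Ctnna2 itself stood at 16.9 ± 2.28 FPKM in R6/2 and 17.9 ± 2.47 FPKM in control libraries (SD, n = 5 each, log2 change -0.08, limma adjusted p = 0.697).

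Nrxn3 encodes neurexin 3 and lies at GRCm38 chromosome 12, 88722876 to 90334935 on the plus strand, a span of 1612 kb. It stood at 123, 114, 103, 126 and 129 FPKM in R6/2 libraries 1 to 5, against 148, 141, 145, 146 and 159.5 FPKM in control libraries 1 to 5. Every R6/2 library lay below every control library, and R6/2 3, the library with the most cortical and the least spiny neuron signal, was the lowest. The log2 change was -0.32 (SE 0.0765, 95% interval -0.49 to -0.15, limma adjusted p = 0.0214). The call was lost after quantile normalization (-0.20, limma adjusted p = 0.128), after rescaling of protein-coding genes (-0.20, limma adjusted p = 0.114) and with the cortical markers as a covariate (-0.20, limma adjusted p = 0.423). Neurexin genes make long alpha and short beta forms from separate promoters, and a single FPKM per gene does not separate them.

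The promoter windows of the genes that fell are shown because they carry the called changes. They are taken from RefSeq (GRCm38.p6), and the set of windows used here covered 5 of the 9 genes. A gene missing from this set may still have a window in RefSeq. The windows run from 250 bases before to 50 bases after a transcript start, 5′ to 3′ on the strand of the gene. Capitals mark matches, on either strand, to a GC box (GGGCGG), a CREB half-site (TGACG), an AP-1 site (TGANTCA) or a TATA box (TATAAA), and no match overlapped another. Lrrtm1 had 1 window, chr6:77242227-77242526, and Nrxn3 had 3, chr12:88794254-88794553, chr12:88953140-88953439 and chr12:89812233-89812532, all on the plus strand. The Lrrtm1 window ends before the gene start given above, 77242689, since the 2 annotations place the start differently. All 3 Nrxn3 windows lie inside the span of the gene, which begins at 88722876. The windows follow annotated transcript starts, and whether these act as promoters in striatum was not tested.
Lrrtm1: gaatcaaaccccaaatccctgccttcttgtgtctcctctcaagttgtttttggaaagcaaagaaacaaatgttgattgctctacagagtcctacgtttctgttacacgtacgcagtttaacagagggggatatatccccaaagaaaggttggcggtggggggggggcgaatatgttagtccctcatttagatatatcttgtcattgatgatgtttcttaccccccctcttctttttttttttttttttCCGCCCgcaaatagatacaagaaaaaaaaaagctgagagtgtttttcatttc
Nrxn3, start 1: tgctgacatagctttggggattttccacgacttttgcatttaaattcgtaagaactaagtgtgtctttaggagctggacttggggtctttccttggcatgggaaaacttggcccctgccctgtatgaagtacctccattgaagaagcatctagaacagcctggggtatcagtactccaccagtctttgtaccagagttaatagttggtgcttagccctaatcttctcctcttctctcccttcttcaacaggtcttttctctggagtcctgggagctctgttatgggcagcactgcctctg
Nrxn3, start 2: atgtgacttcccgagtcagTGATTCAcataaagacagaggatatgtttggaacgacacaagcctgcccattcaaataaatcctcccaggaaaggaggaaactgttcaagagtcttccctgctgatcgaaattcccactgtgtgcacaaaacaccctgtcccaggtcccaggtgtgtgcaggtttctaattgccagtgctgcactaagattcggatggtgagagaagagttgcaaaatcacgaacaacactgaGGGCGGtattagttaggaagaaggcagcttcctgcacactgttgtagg
Nrxn3, start 3: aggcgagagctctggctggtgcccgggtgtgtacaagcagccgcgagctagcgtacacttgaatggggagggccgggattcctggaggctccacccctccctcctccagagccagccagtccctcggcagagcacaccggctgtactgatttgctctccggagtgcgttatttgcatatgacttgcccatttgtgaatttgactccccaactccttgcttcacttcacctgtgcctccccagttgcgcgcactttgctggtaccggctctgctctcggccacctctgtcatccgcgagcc

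The Lrrtm1 window held 1 GC box match and 7 CG dinucleotides, which is the median of the 32851 windows in the table. The Nrxn3 windows held 2, 6 and 16 CG dinucleotides in the order of their starts, and start 2 had 1 AP-1 and 1 GC box match. Over all windows, 35.7% had a GC box match, 20.8% a CREB half-site, 7.81% an AP-1 site and 13.6% a TATA box. These matches describe letters in the windows only. Among the windows not printed, that of Nlgn2 held 26 CG dinucleotides, 3 GC box matches and 1 CREB half-site match, the 2 of Nlgn1 held 14 and 6 CG dinucleotides and no match, and the 2 of Cntnap2 held 14 and 3 CG dinucleotides, with 1 GC box match in the first.

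Nrxn2, the other neurexin among the 9, was near the lower limit of the test. It stood at 2.11, 1.76, 0.930, 2.03 and 2.62 FPKM in R6/2 libraries 1 to 5, against 1.01, 1.81, 0.795, 1.17 and 1.23 FPKM in control libraries 1 to 5. The groups overlapped, since R6/2 2 and 3 lay within the range of the controls. Controls 1, 2, 4 and 5 lay within the range of the R6/2 libraries. The log2 change was 0.38 (SE 0.198, 95% interval -0.07 to 0.82, limma adjusted p = 0.259). The change was above 0 in all 19 settings in which Nrxn2 was tested. At such low values the log2(FPKM + 1) scale understates a change, and the value depended on the pseudocount, with 0.59 at 0.1 FPKM and 0.15 at 5 FPKM (limma adjusted p = 0.253 and 0.229).

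The neuroligins bind neurexins from the postsynaptic side, Nlgn1 mainly at excitatory synapses, Nlgn2 mainly at inhibitory synapses and Nlgn3 at both kinds. Nlgn1 had 24.1, 27.2, 26.04, 21.4 and 25.7 FPKM in R6/2 libraries 1 to 5, against 29.5, 29.0, 28.0, 29.5 and 31.5 FPKM in control libraries 1 to 5. The groups did not overlap, which held for 3 of the 9 genes, all with R6/2 below, and for 13.1% of all genes tested (4.5% with R6/2 above and 8.58% with R6/2 below). The log2 change of Nlgn1, -0.24, did not pass (SE 0.0756, 95% interval -0.41 to -0.07, limma adjusted p = 0.0644). It passed in 2 of 20 settings, without R6/2 2 (-0.27, limma adjusted p = 0.0462) and with a minimum mean of 5 FPKM (limma adjusted p = 0.048). After rescaling of protein-coding genes the log2 change of Nlgn1 was -0.13 (limma adjusted p = 0.257). After quantile normalization it was -0.18 (limma adjusted p = 0.172), and with the cortical covariate -0.36 (limma adjusted p = 0.115). An exon of Nlgn1 overlaps A830092H15Rik, an antisense RNA gene, which averaged 3.94 ± 2.31 FPKM in R6/2 and 8.62 ± 1.81 FPKM in control libraries (SD, n = 5 each, limma adjusted p = 0.0491). The sources used here give no strand setting, so reads of the 2 genes in the shared stretch may not be separated. Exons of Nrxn2, Nrxn3 and Cntnap4 also overlap those of genes on the other strand. An exon of Nlgn3 overlaps Gm21986 on the same strand. Gm21986 averaged 0.987 ± 0.527 FPKM in R6/2 and 1.65 ± 0.744 FPKM in control libraries (SD, n = 5 each, limma adjusted p = 0.389).

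Nlgn2 had 12.9, 12.4, 11.7, 12.2 and 9.996 FPKM in R6/2 libraries 1 to 5, against 15.6, 14.5, 17.0, 12.7 and 9.92 FPKM in control libraries 1 to 5. The controls spread far more widely than the R6/2 libraries, with control 5 below all of them and controls 1, 2 and 3 above all of them (log2 change -0.20, 95% interval -0.50 to 0.10, limma adjusted p = 0.389). Nlgn3 had 18.8, 17.8, 18.02, 21.2 and 17.1 FPKM in R6/2 libraries 1 to 5, against 20.3, 19.1, 20.9, 23.5 and 16.8 FPKM in control libraries 1 to 5. Its groups overlapped almost fully, with replicate 4 the highest in both groups (log2 change -0.11, 95% interval -0.32 to 0.11, limma adjusted p = 0.533). The sum of the 3 neuroligin genes ran from 52.8 to 57.4 FPKM in R6/2 and from 58.3 to 65.9 FPKM in control libraries. Within that sum Nlgn1 held 45.0 ± 3.91% in R6/2 and 46.6 ± 4.44% in controls, and Nlgn2 held 21.4 ± 1.58% in R6/2 and 21.8 ± 3.58% in controls (SD, n = 5 each). The make-up of the neuroligin signal thus differed between the groups by less than the spread within them.

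Lrrtm2, the close relative of Lrrtm1 and also a neurexin ligand of excitatory synapses, had 25.3, 24.8, 27.8, 24.2 and 31.5 FPKM in R6/2 libraries 1 to 5, against 31.6, 30.1, 32.9, 28.8 and 40.9 FPKM in control libraries 1 to 5. The groups overlapped through R6/2 5, and replicate 5 was the highest in both groups. The log2 change was -0.29 (SE 0.11, 95% interval -0.53 to -0.04, limma adjusted p = 0.121). Exons of Lrrtm2 overlap those of Ctnna1, another alpha-catenin gene, on the other strand. Ctnna1 averaged 11.6 ± 1.15 FPKM in R6/2 and 15.7 ± 3.09 FPKM in control libraries (SD, n = 5 each, limma adjusted p = 0.0805). Lrrtm1 held 18.0 to 25.2% of the summed Lrrtm1 and Lrrtm2 signal in R6/2 and 27.5 to 33.4% in control libraries, with no overlap.

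Cntnap2 encodes the axonal protein CASPR2, which helps to cluster potassium channels beside the nodes of myelinated axons. It had 27.9, 56.6, 25.0, 37.9 and 46.1 FPKM in R6/2 libraries 1 to 5, against 35.5, 36.9, 43.0, 29.9 and 29.1 FPKM in control libraries 1 to 5. The R6/2 libraries lay both below and above all controls, and their spread was 33.7% of the mean, against 16.3% in controls. The log2 change was 0.10 (SE 0.219, 95% interval -0.39 to 0.59, limma adjusted p = 0.821), and it was -0.05 without R6/2 2 (limma adjusted p = 0.905).

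Cntnap4, a relative known from the terminals of interneurons and dopamine neurons, had 1.80, 2.85, 2.22, 1.36 and 3.30 FPKM in R6/2 libraries 1 to 5, against 1.17, 1.80, 1.47, 1.24 and 1.95 FPKM in control libraries 1 to 5. R6/2 2, 3 and 5 lay above all controls, and R6/2 1 and 4 lay among them (log2 change 0.37, SE 0.185, 95% interval -0.05 to 0.78, limma adjusted p = 0.239). The log2 change of Cntnap4 was 0.53 with a pseudocount of 0.1 FPKM, 0.16 with 5 FPKM and 0.14 with the cortical covariate, and it passed in none of its 19 settings. The same R6/2 libraries, 2 and 5, were the highest for Cntnap2. Among interneuron markers, 5 of 7 tested were called lower (Slc5a7, Npy, Nos1, Chat and Sst). Lhx6 (log2 change -0.35, limma adjusted p = 0.0655) and Pvalb (-0.18, limma adjusted p = 0.712) were not called.

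**Figure D2:**
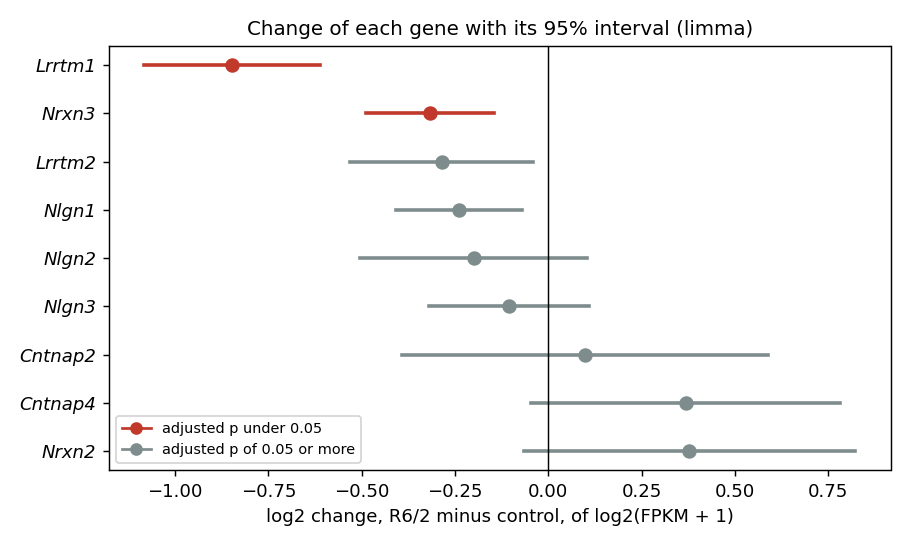
Log2 change of each gene, R6/2 minus control, on the log2(FPKM + 1) scale, with the 95% interval from limma as a horizontal line, and red for genes with an adjusted p under 0.05. The intervals of Lrrtm1, Nrxn3, Lrrtm2 and Nlgn1 lie below 0, but only Lrrtm1 and Nrxn3 pass adjustment over all genes tested.

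FPKM is scaled by length, so the levels of the 9 genes can be set in order. In controls Nrxn3 came first with 148 ± 6.93 FPKM, followed by Cntnap2 with 34.9 ± 5.69, Lrrtm2 with 32.9 ± 4.77, Nlgn1 with 29.5 ± 1.31, Nlgn3 with 20.1 ± 2.43, Nlgn2 with 13.9 ± 2.75, Lrrtm1 with 13.8 ± 1.93, Cntnap4 with 1.52 ± 0.343 and Nrxn2 with 1.204 ± 0.38 FPKM (SD, n = 5). The R6/2 means had the same order. The order did not hold in every library. Cntnap2 lay above Lrrtm2, and Lrrtm2 above Nlgn1, in 4 of 5 libraries of either group. Cntnap4 lay above Nrxn2 in 3 of 5 R6/2 libraries and in 4 of 5 control libraries. Differences in level between genes were not tested. Nlgn2 lay above Lrrtm1 in 5 of 5 R6/2 libraries and in 3 of 5 control libraries.

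Whether relatives changed by different amounts was tested on 6 ratios within families, each the difference of log2(FPKM + 1) between 2 genes in 1 library, with an exact permutation test over the 252 splits into 5 and 5 libraries, two-sided, and Benjamini-Hochberg adjustment over the 6. The Lrrtm1 over Lrrtm2 ratio averaged -1.75 ± 0.239 in R6/2 and -1.19 ± 0.157 in control libraries (SD, n = 5 each), without overlap. The difference was -0.56 (exact p = 0.00794, the smallest possible, adjusted p = 0.0476), so the log2 change of Lrrtm1 was the lower of the pair. The Nrxn3 over Nrxn2 ratio averaged 5.40 ± 0.213 in R6/2 and 6.09 ± 0.261 in control libraries (SD, n = 5 each), and R6/2 3 lay above control 2. The difference was -0.70 (exact p = 0.0159, adjusted p = 0.0476). Nrxn2 was near the lower limit of the test, and the size of this difference depended on the pseudocount. It was -0.91 with 0.1 FPKM and -0.46 with 5 FPKM (adjusted exact p = 0.0476 and 0.0238). The calls of Lrrtm1 over Lrrtm2 and of Nrxn3 over Nrxn2 both sit at the edge of what 5 against 5 libraries allow. With 1 library left out, the adjusted p of the exact test was 0.0714 for Lrrtm1 over Lrrtm2 without control 1, 3, 4 or 5. It was 0.0714 for Nrxn3 over Nrxn2 without any single library other than R6/2 3 or control 2.

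The 4 other ratios did not pass in the same exact permutation test. The differences, R6/2 minus control, were -0.04 for Nlgn1 over Nlgn2 (adjusted exact p = 0.841), -0.13 for Nlgn1 over Nlgn3, -0.09 for Nlgn2 over Nlgn3 and -0.27 for Cntnap2 over Cntnap4 (adjusted exact p = 0.505 each). These p-values do not show that the relatives changed alike.

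**Figure D3:**
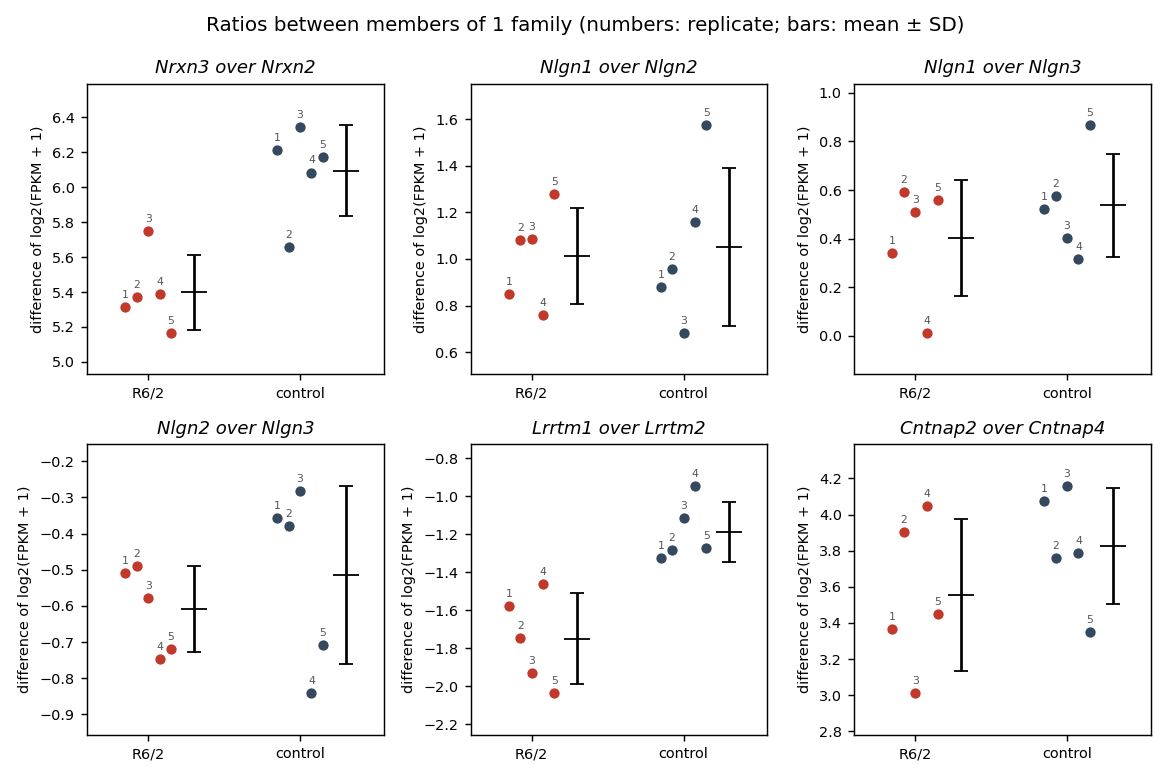
Difference of log2(FPKM + 1) between 2 genes of 1 family in each library, R6/2 to the left of control, with points numbered by replicate and bars for the mean ± SD of 5 libraries. The R6/2 points of Lrrtm1 over Lrrtm2 all lie below the controls, those of Nrxn3 over Nrxn2 do so except for R6/2 3 against control 2, and the other ratios overlap.

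The wider adhesion system was described with 5 lists of 85 genes in all, of which 79 were tested, 5 called higher and 21 lower. That is 6.33% higher and 26.6% lower, against 5.0% and 9.11% of all genes tested, with a median log2 change of -0.18. The lists were chosen with earlier results of these data known. These shares therefore cannot test whether adhesion genes fell more often than other genes. With the cortical markers as a covariate limma called 0 higher and 4 lower, and after rescaling of protein-coding genes 8 and 13. With 1 library left out, the number called higher ran from 2 (without control 1, 2, 3 or 4) to 7 (without control 5), and was 3 without R6/2 1, 2 or 5. The number called lower ran from 13 (without R6/2 4) to 25 (without control 5), and was 14 without control 1 or R6/2 5.

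Other neurexin ligands had 1 of 12 tested genes higher and 4 lower (median log2 change -0.27). Lrrtm3, another Lrrtm family gene, lay between 57.5 and 66.0 FPKM in R6/2 and between 74.1 and 105 FPKM in control libraries (log2 change -0.47, limma adjusted p = 0.0137). Dag1, which encodes dystroglycan, a surface receptor that binds neurexins, fell, with a log2 change of -0.30 (limma adjusted p = 0.0408). Adgrl2, a latrophilin adhesion receptor gene, rose by 0.39 (limma adjusted p = 0.039). The calls of Dag1 and Adgrl2 were each lost in 7 of the 10 settings that left out 1 library, with limma adjusted p-values up to 0.083 for Dag1 and 0.0836 for Adgrl2. With the cortical covariate the log2 changes were -0.37 for Lrrtm3 (limma adjusted p = 0.291), -0.24 for Dag1 (limma adjusted p = 0.427) and 0.33 for Adgrl2 (limma adjusted p = 0.406), and none of these passed. Dag1 did not pass after quantile normalization (limma adjusted p = 0.0779) or rescaling of protein-coding genes (limma adjusted p = 0.14) either.

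Scaffolds and other partners of neurexins and neuroligins, inside the cell or in the same membrane, had the lowest median of the 5 lists, -0.40, with 8 of 15 tested genes lower and the other 7 not called. Igsf9b, which encodes an adhesion protein of inhibitory synapses, averaged 2.49 ± 0.342 FPKM in R6/2 and 6.53 ± 1.12 FPKM in control libraries (SD, n = 5 each, log2 change -1.10, limma adjusted p = 0.000333). Lin7b, a partner of the neurexin-binding kinase CASK, fell by 0.89 (limma adjusted p = 0.00142). Dlg4, which encodes PSD-95, the scaffold that binds the tail of neuroligin 1, averaged 167 ± 16.0 FPKM in R6/2 and 278 ± 39.4 FPKM in control libraries (SD, n = 5 each, log2 change -0.72, limma adjusted p = 0.00202). With the cortical covariate the log2 changes were -0.86 for Lin7b (limma adjusted p = 0.0548) and -0.54 for Dlg4 (limma adjusted p = 0.107).

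The LAR-type receptor phosphatases, a second presynaptic organiser family, and their ligands had 1 of 14 tested genes higher and 1 lower (median -0.02). Slitrk1, a postsynaptic ligand gene, rose by 0.67 on the log2 scale, with 22.9 ± 1.42 FPKM in R6/2 and 14.1 ± 2.10 FPKM in control libraries (SD, n = 5 each, limma adjusted p = 0.00218). Its relative Slitrk2 fell by 0.53 (limma adjusted p = 0.0141). Ntrk3, the gene of a neurotrophin receptor that also binds such a phosphatase, had a log2 change of -0.68 and did not pass (limma adjusted p = 0.0572), but passed without control 5 (-0.80, limma adjusted p = 0.0253) and with a minimum mean of 5 FPKM (limma adjusted p = 0.0449). With the cortical covariate the log2 changes were 0.42 for Slitrk1 (limma adjusted p = 0.102), -0.62 for Slitrk2 (limma adjusted p = 0.114) and -0.56 for Ntrk3 (limma adjusted p = 0.465). Ntrk3 did not pass after quantile normalization (limma adjusted p = 0.118) or rescaling of protein-coding genes (limma adjusted p = 0.102) either.

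Contactins and the proteins beside nodes of axons had 6 of 17 tested genes lower and the other 11 not called (median -0.23). None of the contactin genes themselves, Cntn1 to Cntn6, was called. Adam23, which encodes a receptor of the secreted LGI proteins, fell by 0.67 (limma adjusted p = 0.000336). Cntnap1, which encodes the paranodal protein CASPR and is a relative of Cntnap2, averaged 12.2 ± 0.546 FPKM in R6/2 and 18.8 ± 1.70 FPKM in control libraries (SD, n = 5 each, log2 change -0.58, limma adjusted p = 0.000794). Kcna1, a potassium channel gene whose product is clustered with CASPR2, fell by 0.64 (limma adjusted p = 0.00188), and had a log2 change of -0.53 under the cortical covariate (limma adjusted p = 0.0927). Myelin markers summed to 708 to 1093 FPKM in R6/2 and to 1533 to 1721 FPKM in control libraries, and their part in the changes of the nodal genes was not tested.

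Other synaptic adhesion families had 3 of 21 tested genes higher and 2 lower (median 0.01). Flrt3, which encodes a postsynaptic latrophilin ligand, averaged 13.9 ± 1.25 FPKM in R6/2 and 24.6 ± 1.80 FPKM in control libraries (SD, n = 5 each, log2 change -0.79, limma adjusted p = 0.000245). Cadm3, a nectin-like cell adhesion gene, fell by 0.53 (limma adjusted p = 0.025), a call that was lost without control 1, control 4, R6/2 4 or R6/2 5 (limma adjusted p = 0.0504 to 0.0584). It was also lost after quantile normalization (-0.40, limma adjusted p = 0.0778), after rescaling of protein-coding genes (-0.42, limma adjusted p = 0.0622) and with the cortical covariate (-0.53, limma adjusted p = 0.268). Lrfn1, a postsynaptic leucine-rich repeat gene, rose by 0.61 (limma adjusted p = 0.00803), and had a log2 change of 0.37 under the cortical covariate (limma adjusted p = 0.286).

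**Figure D4:**
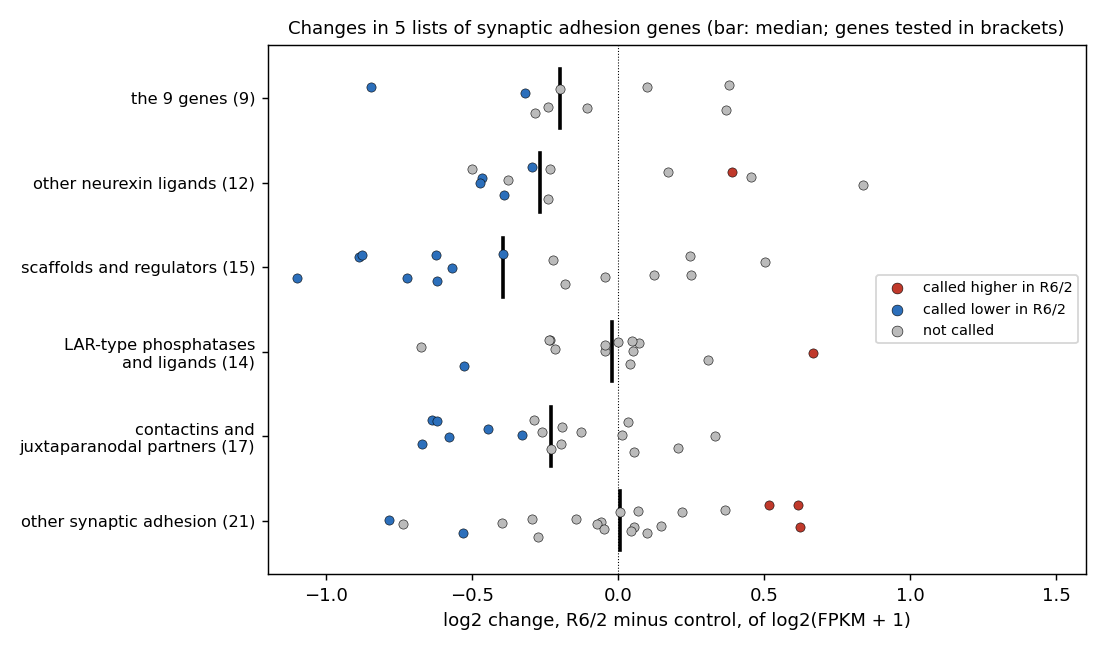
Log2 change, R6/2 minus control, of each tested gene in 5 adhesion lists and of the 9 genes described here (top row), with red for genes called higher, blue for genes called lower and a black bar at the median. The scaffold list has the lowest median, -0.40, and the other synaptic adhesion list has calls in both directions.

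The named gene whose pattern over the 10 libraries was most like that of Nrxn3 was Pde4b, a cyclic AMP phosphodiesterase gene, with a mean absolute difference of 0.0504 between centred log2 values. Pde4b averaged 37.2 FPKM in R6/2 and 45.2 FPKM in control libraries and did not pass (log2 change -0.28, limma adjusted p = 0.074), except without R6/2 4 (-0.33, limma adjusted p = 0.0407). The gene most like Lrrtm1 was Shc3, a neuronal adaptor gene of the Shc family, with a mean absolute difference of 0.0784. Shc3 averaged 10.1 FPKM in R6/2 and 19.4 FPKM in control libraries (log2 change -0.86, limma adjusted p = 0.00171).

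**Figure D5:**
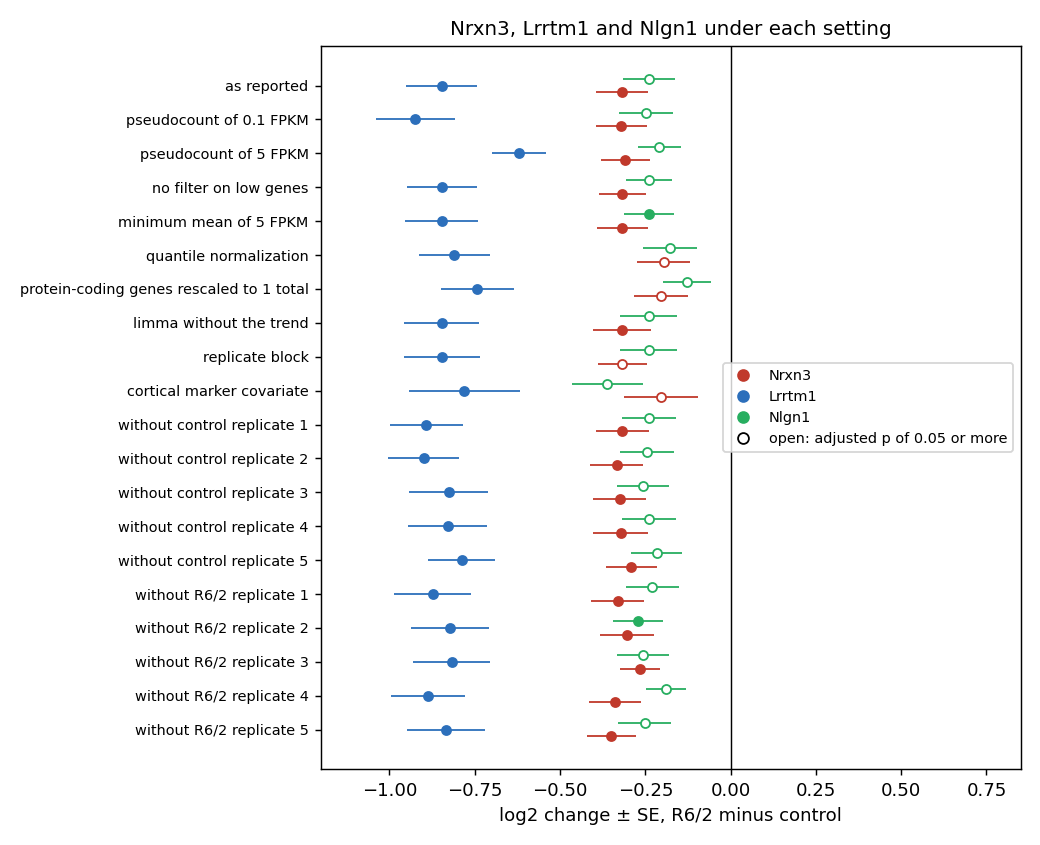
Log2 change ± SE, R6/2 minus control, of Nrxn3, Lrrtm1 and Nlgn1 under each of 20 settings, with filled points for an adjusted p under 0.05 and open points otherwise. Lrrtm1 is filled throughout, Nrxn3 in 16 of the settings and Nlgn1 in 2, and all points lie below 0.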

How the data were processed

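Striatal RNA of 5 R6/2 and 5 control libraries was sequenced. The authors deposited FPKM values, 1 column per library. The submitters' processing notes name the build GRCm38 and the tools Cuffdiff, Cufflinks and STAR (version 2.4.0), and the sources used here give no annotation release, strand setting or scaling. Of 47632 gene IDs, 47220 matched a GENCODE M21 symbol by stable ID, and positions are from that GRCm38 annotation. The 15905 genes that averaged 1 FPKM or more were tested with limma 3.58.1 (R 4.3.3, mean-variance trend) on log2(FPKM + 1), two-sided, with Benjamini-Hochberg adjustment over all of them and a threshold of 0.05. FPKM values are not counts, so no counting interval is given. Relative depth was read from the commonest ratio to control 1 among genes under 0.3 FPKM in both libraries, with a tolerance of 0.03 on the log2 scale.

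The 9 genes and all lists were chosen with earlier results of these data known. Named besides the 9 were the 3 tested genes with the smallest p in each of the 5 adhesion lists and, for each called gene, the named gene with the smallest mean absolute difference of centred log2 values. Some genes of these families are not reported here. The labels number replicates 1 to 5 in both groups without stating that a number is shared.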

Additional observations from a re-analysis of the deposited data

How the results depend on the processing

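The log2 change of Lrrtm1 stayed past the threshold in all 20 settings. Nrxn3 did not pass after quantile normalization (-0.20), rescaling of protein-coding genes (-0.20), with the cortical marker signal as a covariate (-0.20) or with the replicate block (-0.32, limma adjusted p = 0.0543), and in each of these 1 of the 9 genes was called lower. Nlgn1 passed with a minimum mean of 5 FPKM (-0.24), where 7 of the 9 genes were tested. The sign of Nlgn3 changed on rescaling (0.0043) and that of Nlgn2 with the cortical covariate (0.0032). Over all genes, 1522 were called higher after rescaling and 370 with the replicate block, and the cortical covariate left 95 higher and 460 lower. The cause of these differences was not tested. Same-numbered libraries did not deviate together over the genes tested (correlations of -0.0528 to 0.0495). Such values cannot exclude a shared litter, batch or day, so whether the numbers pair the libraries is not known.

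Leaving out each library in turn, the log2 change ran from -0.27 to -0.19 for Nlgn1, from -0.31 (without control 5) to -0.13 (without control 3) for Nlgn2, from -0.16 (without control 5) to -0.05 (without control 4) for Nlgn3 and from -0.0527 (without R6/2 2) to 0.23 for Cntnap2. None of Nlgn2, Nlgn3 and Cntnap2 was called in any of these. The ratio differences ran from -0.80 to -0.63 for Nrxn3 over Nrxn2, from -0.13 to 0.0919 for Nlgn1 over Nlgn2, where the sign changed without R6/2 1, R6/2 4 or control 5, from -0.39 to -0.13 for Cntnap2 over Cntnap4, from -0.19 to -0.04 for Nlgn1 over Nlgn3, from -0.18 to -0.04 for Nlgn2 over Nlgn3 and from -0.63 to -0.49 for Lrrtm1 over Lrrtm2. With the replicate block Ntrk3 passed (-0.68, limma adjusted p = 0.0236) and Adgrl2, Dag1 and Slitrk2 did not. Without R6/2 2, 3 of the 9 genes were called lower. For Nrxn2 and Cntnap4, low FPKM values limit what can be detected.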
